A study of Rattus norvegicus with 16 samples.

Results

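Cdkn1c and Cdkn2c, 2 of the genes that encode inhibitors of cyclin-dependent kinases (CDKs), were followed in rat neural stem and progenitor cells after the mitogen FGF-2 was withdrawn. They were chosen by their values in these data, because they lay on opposite sides of the FGF-2 level after withdrawal. Each was read by 1 cDNA feature, out of 6241 named genes and 12559 genes and unnamed features tested. The cultures were monolayers prepared at embryonic day 14.5 from Sprague-Dawley rat neocortex and kept in N2 medium containing 10 ng/ml FGF-2. The 4 groups were cells without added growth factor for 12 h, cells given 10 ng/ml of platelet-derived growth factor AA, written PDGF-AA, for 12 h, and both treatments for 6 d. Each group had 4 two-colour arrays with the dyes swapped on 2 of them, and the other channel of each of the 16 arrays carried RNA of cells kept in FGF-2.

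Progress from G1 into S phase depends on CDK4 and CDK6 with D-type cyclins and on CDK2 with E- and A-type cyclins, which phosphorylate the retinoblastoma protein and release E2F transcription factors. Cdkn1c encodes p57Kip2, which with p21 and p27 forms the Cip/Kip family that binds cyclin-CDK complexes. It is an imprinted gene, expressed mainly from the maternal copy, and is known for promoting cell cycle exit in the developing cortex. Cdkn2c encodes p18Ink4c, a member of the INK4 family that binds CDK4 and CDK6 alone. It is known to be expressed in cycling neural progenitors.

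Values are log2 ratios of sample over the FGF-2 reference, with standard errors (SE) from limma, a linear model fitted across all genes. The 4 groups share a single estimate of the spread for each gene, so a gene's SE is the same in every group. The labels state neither the log base of the ratios, which was taken as 2, nor their direction. That they run as sample over reference is likely, and was judged from replication genes lying below 0 after the mitogen was withdrawn, and every sign and fold below rests on it. Comparisons with FGF-2 leave out the spread of the reference. At least 2 RNA preparations stood behind each group, but which arrays shared one is not given, so p-values cover variation among hybridisations, some of which may be technical. Replicate numbers serve as names of arrays. Because the ratios come from bulk RNA, fewer cells of a type and less RNA per cell cannot be told apart.

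Sequence is shown because Cdkn2c moved with genes of S phase and mitosis, many of which carry E2F motifs near their start sites. Promoter windows from RefSeq (rat build GRCr8, 250 bases before to 50 after the start) were searched on both strands for 4 strings of the E2F type. The first was TTCCCGC. The second, with a changed letter in the middle, was TTCGCGC. The others began with a T pair followed by a G, and were TTGCCGC and, with the next letter changed as well, TTGGCGC. The window of Cdkn2c, a gene on the minus strand, held 1 match, which begins 7 bases after the start. Among the 5 genes with the pattern most like that of Cdkn2c, the window of Kif23, a mitotic kinesin gene also on the minus strand, held 1 match, those of Tacc3 and Top2a held 0, and Cdca2 and Incenp had no entry. The 30 bases around each match, chr5:129644866-129644895 for Cdkn2c and chr8:71320542-71320571 for Kif23, are printed 5′ to 3′ in the direction of the gene, and the capitals mark the match.
Cdkn2c: ctcggtcgtagGCGGGAAgttactggtgag
Kif23: ccacggcttagTTCCCGCcagccctgctcc
The match in Cdkn2c is TTCCCGC read on the strand opposite to the gene's, and Kif23 holds the same letters on the gene's own strand. At least 1 of these strings was found in 3186 of all 33469 promoter windows (9.52%) and in 19 of 38 windows of the S phase and mitosis genes (50%). Among windows of CDK inhibitor genes it was 2 of 8 (25%). The window of Cdkn1b, whose change was not significant in any group, held 1 match. The 2 windows of Cdkn3, which fell in all 4 groups, held 0. A match describes the letters in the window and shows no binding. Cdkn1c had no entry among the promoter windows.

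Cdkn1c lay above FGF-2 on 15 of the 16 arrays. After 12 h without growth factor its log2 ratios in replicates 1 to 4 were 2.00, 1.21, 1.19 and 1.60, with a mean of 1.50 ± 0.41 (SE, n = 4), or 2.83-fold. After 6 d without growth factor the arrays gave 2.81, 3.79, 4.15 and 0.71, with a mean of 2.87 ± 0.41 (SE, n = 4), or 7.29-fold. All 8 arrays without growth factor were above 0, and replicate 4 at 6 d lay below every array of 12 h while the other 3 lay above them. Among the named genes, Cdkn1c ranked 6th from the highest at 12 h and 3rd at 6 d. These values chose the gene, so they carry no test.

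With PDGF-AA for 12 h the arrays gave 0.29, 0.92, 0.84 and 0.24 for Cdkn1c, and the mean of 0.57 ± 0.41 (SE, n = 4) was not past the threshold against FGF-2 (limma, two-sided, adjusted p = 0.659, 95% confidence interval -0.29 to 1.44). That verdict depended on the fit: all 4 arrays were above 0, and the group fitted on its own was past the threshold (limma adjusted p = 0.0191). The 4 arrays were also below the lowest array without growth factor at 12 h, and the mean was 0.93 ± 0.58 lower. That difference holds the arrays that chose the gene and carries no test. With PDGF-AA for 6 d the arrays ranged most widely, at -0.34, 1.42, 2.69 and 4.68, with an SD of 2.11 over the 4. The SD was 1.54 at 6 d without growth factor, and 0.38 and 0.36 at 12 h without and with PDGF-AA. The shared SE of 0.41 thus understates the spread between arrays at 6 d and overstates it at 12 h. With PDGF-AA at 6 d the mean was 2.11 ± 0.41 (SE, n = 4), or 4.32-fold. It was past the threshold against FGF-2 (limma adjusted p = 0.00690), with 3 of 4 arrays above 0. In that comparison 1.9% of the units tested were called higher and 1.32% lower. The call was lost without replicate 4, where the mean was 1.48 (limma adjusted p = 0.0687), without a term for dye (limma adjusted p = 0.0883), and when that group was fitted on its own (limma adjusted p = 0.122). It was also lost with a term for a number in the array titles, whose meaning the labels do not give (limma adjusted p = 0.135). Replicate 4 was the only array of its group with the commonest such number. The reference is the same RNA source as in the comparisons that chose the gene, so this test is not fully separate from that choice.

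Cdkn2c lay below FGF-2 on 15 of the 16 arrays. After 12 h without growth factor its log2 ratios were -1.95, -0.98, -1.68 and -1.63, with a mean of -1.56 ± 0.16 (SE, n = 4), 2.95-fold below FGF-2. After 6 d without growth factor they were -0.57, -0.57, -1.04 and -0.37, with a mean of -0.64 ± 0.16 (SE, n = 4), 1.55-fold below. All 8 were below 0, those of 6 d were nearer to it, and 3 of the 4 lay above every array of 12 h. These values chose the gene and carry no test.

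With PDGF-AA for 12 h the arrays gave -1.34, -1.44, -1.20 and -0.82 for Cdkn2c, all below 0. Their mean of -1.20 ± 0.16 (SE, n = 4), 2.30-fold below FGF-2, was past the threshold (limma adjusted p = 0.000912), where 2.35% of all units were called lower and 0.661% higher. In that group Cdkn2c ranked 5th from the lowest of the named genes, and 38th without growth factor at the same time. The call was kept on leaving out any 1 of the 16 arrays, with adjusted p-values of up to 0.0205 in limma. With PDGF-AA for 6 d the arrays gave 0.44, -0.71, -0.75 and -0.69, and the mean of -0.43 ± 0.16 (SE, n = 4) was not past the threshold (limma adjusted p = 0.180, 95% confidence interval -0.76 to -0.10). Replicate 1 was above 0 and stood apart from the other 3. Without it the mean was -0.67 and past the threshold (limma adjusted p = 0.0173).

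**Figure D1:**
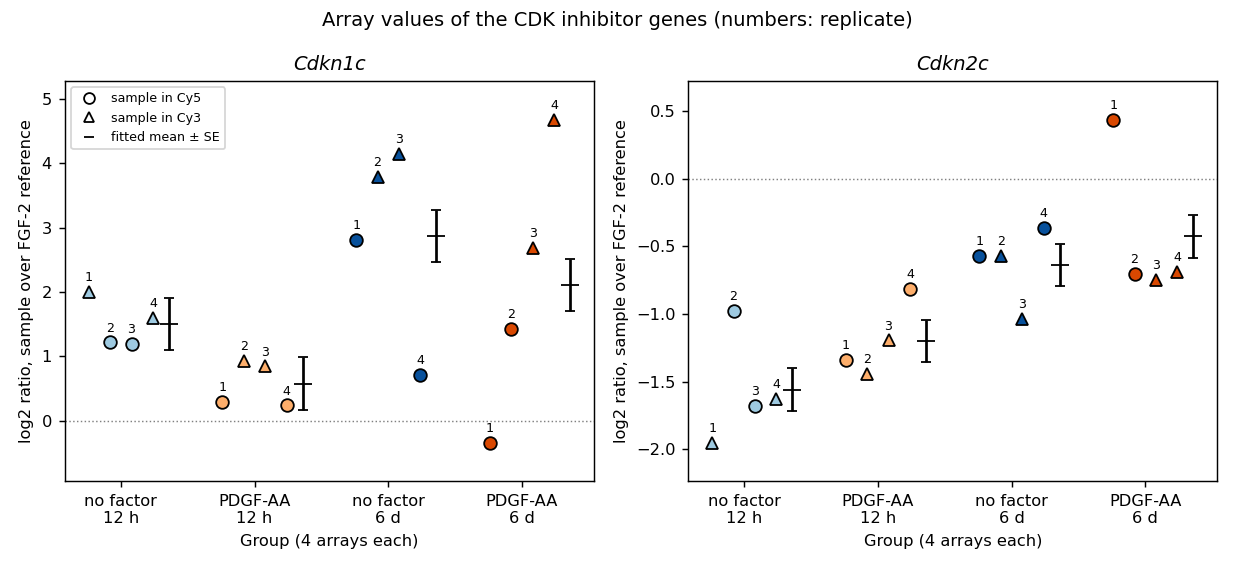
Log2 ratio of sample over FGF-2 reference (vertical axis) for Cdkn1c (left) and Cdkn2c (right) on each of the 4 arrays of each group (horizontal axis), with circles for samples in Cy5, triangles for samples in Cy3, and black bars for the fitted mean ± SE. Cdkn1c was above 0 and Cdkn2c below 0 on 15 of 16 arrays each, and in both genes PDGF-AA 6 d replicate 1 is the exception.

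The genes therefore lay on opposite sides of FGF-2, but the change from 12 h to 6 d ran upward in both. For Cdkn1c the 6 d mean was 1.37 ± 0.58 higher than at 12 h without growth factor, a difference that carries no test, and the arrays of both times overlapped. With PDGF-AA it was 1.54 ± 0.58 higher, which was not past the threshold (limma adjusted p = 0.284), and 3 of the 4 arrays at 6 d lay above all those at 12 h. For Cdkn2c the 6 d mean was 0.92 ± 0.22 higher without growth factor, again with no test. With PDGF-AA it was 0.77 ± 0.22 higher (95% confidence interval 0.30 to 1.24), and all 4 arrays at 6 d lay above all 4 at 12 h. That difference was not past the threshold over all units (limma adjusted p = 0.130). All arrays at 12 h carried the commonest number in the array titles, but at 6 d only 1 of 4 with PDGF-AA and 3 of 4 without growth factor did. Time and that number therefore cannot be fully told apart, least of all with PDGF-AA. With a term for the number, the PDGF-AA differences were 2.12 for Cdkn1c and 0.82 for Cdkn2c (limma adjusted p = 0.444 and 0.450). The share of units called in either direction between 6 d and 12 h was 1.07% with PDGF-AA and 1.87% without growth factor.

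In both genes the mean with PDGF-AA was nearer to FGF-2 than the mean without growth factor at the same time. For Cdkn1c it was lower by 0.93 at 12 h and by 0.76 ± 0.58 at 6 d, where the arrays overlapped. For Cdkn2c it was 0.36 ± 0.22 higher at 12 h and 0.21 ± 0.22 higher at 6 d, and the arrays overlapped at both times. At 6 d neither direction held throughout. On arrays of the commonest of these title numbers only, 3 without growth factor and 1 with PDGF-AA, Cdkn1c was 1.37 higher with PDGF-AA. Without PDGF-AA replicate 1, the Cdkn2c difference was -0.03. None of these differences was tested, since they hold the arrays that chose the genes. Between PDGF-AA and no factor, 0.0159% of all units were called at 12 h and 0.00796% at 6 d. These shares are 2 units and 1 unit, and leaving out 1 array at a time gave 0 to 8 units at 12 h and 1 to 58 at 6 d, the highest counts being without PDGF-AA 6 d replicate 4.

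The groups can be placed in order of their fitted means. For Cdkn1c this order was no factor 6 d, PDGF-AA 6 d, no factor 12 h and PDGF-AA 12 h, from high to low, and its arrays overlapped between neighbours except in the last pair. For Cdkn2c it was PDGF-AA 6 d, no factor 6 d, PDGF-AA 12 h and no factor 12 h. Its arrays overlapped between the 2 groups at 6 d and between the 2 groups at 12 h, and also across times, between no factor 6 d and PDGF-AA 12 h.

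The dye bore on Cdkn1c more than on most of the array. Samples labelled with Cy3 read higher than those labelled with Cy5 in every group. The difference, Cy5 minus Cy3, was -0.60 without growth factor and -0.62 with PDGF-AA at 12 h, and -2.21 and -3.14 at 6 d. The fitted dye effect over all groups was -1.64 ± 0.41 (limma adjusted p = 0.00481), and 11 of the 12559 units had a larger one. Its residual SD of 0.98 was above that of 99.7% of units, whose median was 0.25. With the fitted dye effect removed, Cdkn1c was above 0 on all 16 arrays, from 0.02 to 3.85, and its arrays with PDGF-AA at 12 h then overlapped those without growth factor. That removal took the effect of -1.64 from every group, more than the dye differences at 12 h, where Cy5 arrays then read higher than Cy3 arrays. Within each dye, the arrays with PDGF-AA at 12 h still lay below those without growth factor, so the overlap does not show that the groups were alike. For Cdkn2c the dye effect was 0.41 ± 0.16 (limma adjusted p = 0.0499), 3578 units had a larger one, and the residual SD was 0.35. A dye effect was called in 39.1% of all units, so such a call is common on these arrays. Each group held both dyes equally, so an effect of the dye cancels in the group means.

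The other CDK inhibitor genes that could be read were Cdkn1b and Cdkn3. Cdkn1b, which encodes p27Kip1 of the same family as p57Kip2, had means of 0.03 and 0.01 at 12 h without and with PDGF-AA, and 0.29 and -0.04 at 6 d (SE 0.12). None of them was past the threshold in limma, and 1 of the 4 had an unadjusted p under 0.05. Cdkn3, a phosphatase that acts on CDK2 and CDK1 and peaks in cycling cells, fell in all 4 groups. Its means were -0.92 and -0.79 at 12 h without and with PDGF-AA (limma adjusted p = 0.000552 and 0.00717), and -1.12 and -0.72 at 6 d (limma adjusted p = 0.000100 and 0.0116), with an SE of 0.15. In the no factor comparisons the background was 5.21% called higher and 6.48% lower at 12 h, and 6.99% and 6.73% at 6 d. The call with PDGF-AA at 12 h was lost without replicate 1 or replicate 4 of that group (adjusted p up to 0.0594 in limma), and the call at 6 d without replicate 4 (limma adjusted p = 0.107). Cdkn1a, Cdkn2a, Cdkn2b and Cdkn2d were not analysed here.

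Of the 7 kinase and cyclin genes of G1 and S phase that were measured, 4 fell and 1 rose after 12 h without growth factor, 2 fell and 1 rose with PDGF-AA at 12 h, 3 fell after 6 d without growth factor, and none was past the threshold with PDGF-AA at 6 d (limma, 2 of 7 at an unadjusted p under 0.05). Their medians were -0.52, -0.17, -0.23 and -0.15 in that order, against medians of all units within 0.01 of 0. Of all units, 6.48%, 2.35%, 6.73% and 1.32% were called lower and 5.21%, 0.661%, 6.99% and 1.9% higher in the same order of comparisons. Cdk4, the kinase that p18Ink4c binds, rose by 0.38 in both 12 h groups (limma adjusted p = 0.0163 without and 0.0472 with PDGF-AA). Both calls were close to the threshold: that without growth factor was lost without replicate 1, 2 or 4 of its group, and that with PDGF-AA on leaving out 12 of the 16 arrays, each of its own 4 among them. At 6 d Cdk4 had means of -0.23 and -0.16, which were not past the threshold. Ccnd2, a D-type cyclin, fell by 0.52 after 12 h without growth factor (limma adjusted p = 0.000636) and was not past the threshold in the other 3 groups. Ccnd3 and Ccne2, another D-type and another E-type cyclin, were not past it in any group. Ccne1, which pairs with CDK2 at the start of S phase, had a mean of -1.68 after 12 h and -0.79 after 6 d without growth factor (limma adjusted p = 4.89e-06 and 0.00199). With PDGF-AA its means of -0.44 and -0.15 were not past the threshold. Ccna2 and Cdk1, of S phase and mitosis, fell by 1.92 and 1.89 after 12 h without growth factor (limma adjusted p = 5.52e-06 and 4.66e-06) and by 1.16 each with PDGF-AA (limma adjusted p = 0.00228 and 0.00175).

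**Figure D2:**
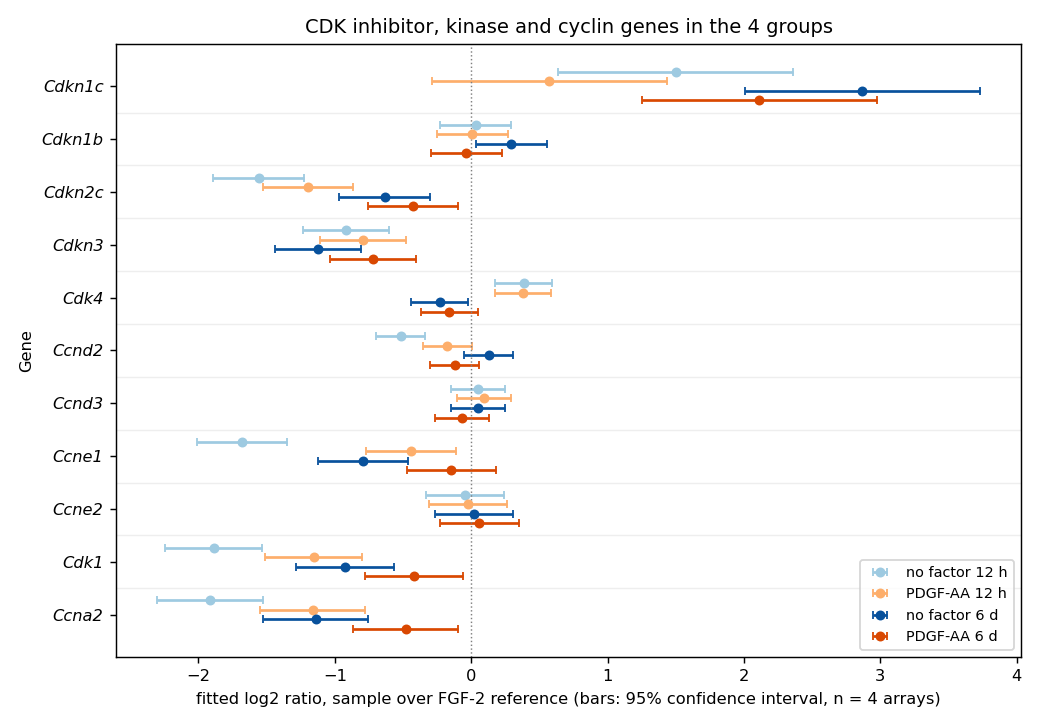
Fitted log2 ratio of sample over FGF-2 reference (horizontal axis) with its 95% confidence interval for 4 CDK inhibitor genes and 7 kinase and cyclin genes (vertical axis) in the 4 groups, n = 4 arrays each. Cdkn1c lies to the right of 0 with wide intervals, Cdkn2c and Cdkn3 lie to the left of it, and Ccne1, Cdk1 and Ccna2 are lowest after 12 h without growth factor, as Cdkn2c is.

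The proteins that CDK4 and CDK2 act on were read through 9 genes of the RB and E2F families. After 12 h without growth factor 4 of them fell and 1 rose, 2 fell with PDGF-AA at 12 h, 2 fell after 6 d without growth factor, and none was past the threshold with PDGF-AA at 6 d (limma, 0 of 9 at an unadjusted p under 0.05). Of all units 6.48%, 2.35%, 6.73% and 1.32% were called lower in these comparisons, and 5.21% higher in the first. Leaving out 1 array at a time gave 2 to 4 genes lower after 12 h without growth factor (2 without no factor 12 h replicate 3), 1 to 3 with PDGF-AA at 12 h and 0 to 2 after 6 d without growth factor, where 12 of the 16 arrays each moved the count and it was 0 without replicate 1 or 3 of that group. Rbl1, encoding p107 of the RB family, fell by 0.84 at 12 h without growth factor and by 0.74 with PDGF-AA (limma adjusted p = 5.74e-05 and 0.00166). Rbl2, encoding p130, which is most abundant in resting cells, rose by 0.50 at 12 h without growth factor (limma adjusted p = 0.0233), a call lost without replicate 1, 2 or 3 of that group. E2f7, an E2F repressor, fell by 0.59 and 0.52 in the 12 h groups (limma adjusted p = 0.00634 and 0.0399). The first call was lost without no factor 12 h replicate 3, and the second on leaving out 6 of the 16 arrays, among them PDGF-AA 12 h replicates 1, 2 and 4.

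S phase and mitosis genes were lowest after 12 h without growth factor and nearest to 0 with PDGF-AA at 6 d, as Cdkn2c was. Of 36 measured, 34 fell after 12 h without growth factor, 24 with PDGF-AA at 12 h, 30 after 6 d without growth factor and 5 with PDGF-AA at 6 d, and none rose. Their medians were -1.39, -0.86, -0.84 and -0.39, and 6.48%, 2.35%, 6.73% and 1.32% of all units were called lower. With PDGF-AA at 12 h the count of 24 was 13 without replicate 1 and 14 without replicate 2 of that group. At 6 d with PDGF-AA the count of 5 ran from 1, without replicate 4 of that group, to 11, without replicate 1, and it was 2 without replicate 2 and 3 without PDGF-AA 12 h replicate 2 or 4 or no factor 6 d replicate 3. The direction of the ratios was itself judged from such genes, so these signs are not independent evidence. Set beside them, the Cdkn2c means of -1.56, -1.20, -0.64 and -0.43 lay below the list's median in both 12 h groups, above it after 6 d without growth factor, and close to it with PDGF-AA at 6 d.

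Single arrays of the 6 d groups were set beside 2 lists. With PDGF-AA at 6 d, the mean of the S phase and mitosis genes was 0.24 in replicate 1, -0.36 and -0.37 in replicates 2 and 3, and -0.97 in replicate 4. The mean of 4 astrocyte genes in the same arrays was 0.05, 0.66, 0.99 and 1.71. Thus the array with the lowest Cdkn1c and the highest Cdkn2c had the highest cell cycle genes and the lowest astrocyte genes, and the array with the highest Cdkn1c had the lowest cell cycle genes and the highest astrocyte genes. Cdkn2c did not follow in replicates 2 to 4, at -0.71, -0.75 and -0.69. Without growth factor at 6 d, replicate 4 had the lowest Cdkn1c, the highest Cdkn2c, the highest S phase and mitosis mean (-0.46) and the lowest astrocyte mean (0.95) of its group. In the other 3 arrays the S phase and mitosis mean was between -1.06 and -0.80 and the astrocyte mean between 1.67 and 2.10. Replicate 4 is a Cy5 array. With the dye effect removed it still had the lowest Cdkn1c (1.53) and the highest S phase and mitosis median (-0.55) of its group, but Cdkn2c was highest in replicate 2 (-0.37). At 12 h without growth factor the array with the lowest Cdkn1c as measured, replicate 3, had the lowest S phase and mitosis mean (-1.53). Over the 16 arrays, which share a reference, with the dye effect removed, Pearson's r with the S phase and mitosis median was 0.84 for Cdkn2c and -0.19 for Cdkn1c. For deviations from the group means it was 0.71 and -0.86. The same dye effect was removed at both times, though for Cdkn1c the dye difference was smaller at 12 h and larger at 6 d. Its r values may therefore hold a remainder of the dye, whose part was not tested. The part of these differences between arrays in the group means was not tested.

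**Figure D3:**
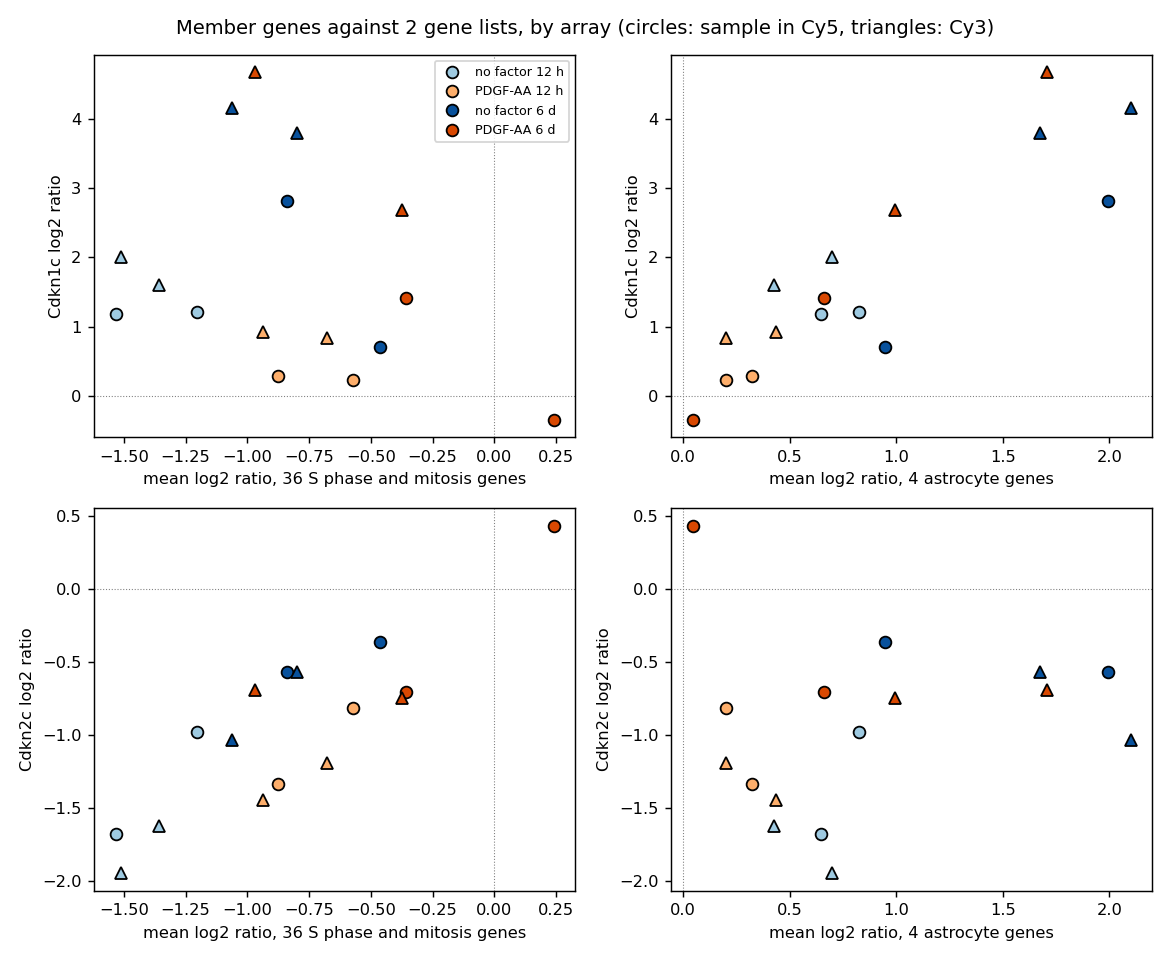
Log2 ratio of Cdkn1c (top) and Cdkn2c (bottom) against the mean log2 ratio of 36 S phase and mitosis genes (left) and of 4 astrocyte genes (right) on each of the 16 arrays, coloured by group, with circles for samples in Cy5 and triangles for Cy3. PDGF-AA 6 d replicate 1, with an S phase mean of 0.24 and an astrocyte mean of 0.05, is lowest for Cdkn1c and highest for Cdkn2c.

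Markers of cell types were read to set beside Cdkn1c, and their part in its values was not tested. Of 4 astrocyte genes, 1 rose after 12 h without growth factor, none with PDGF-AA at 12 h (limma, 1 of 4 at an unadjusted p under 0.05), 4 after 6 d without growth factor and 2 with PDGF-AA at 6 d. Of all units 5.21%, 0.661%, 6.99% and 1.9% were called higher in these comparisons, which are also the background of the other marker lists. Clu, a secreted chaperone abundant in astrocytes, rose by 3.22 and Gja1, a connexin gap junction gene, by 1.89 after 6 d without growth factor (limma adjusted p = 2.12e-05 and 2.40e-06). The call of Clu with PDGF-AA at 6 d was lost on leaving out 3 of the 16 arrays in turn. That of Glul, another of the 4 genes, after 6 d without growth factor was lost on leaving out 2. The calls of Gja1 in both 6 d groups were kept throughout. Over single arrays the astrocyte mean ranged from 0.43 to 0.83 and from 0.20 to 0.43 at 12 h without and with PDGF-AA, and from 0.95 to 2.10 and from 0.05 to 1.71 at 6 d. Of 4 meningeal and mesenchymal genes, 1, 0, 3 and 2 rose in no factor 12 h, PDGF-AA 12 h, no factor 6 d and PDGF-AA 6 d. Of 4 neuron genes, 2, 1, 2 and 0 rose in the same order. None of the 2 microglia or 2 endothelium genes was past the threshold in any group in limma, also at an unadjusted p under 0.05 (0 genes). Of 4 neural stem and progenitor genes none rose, and 2, 0, 1 and 1 fell in the order of groups above. Of all units 6.48%, 2.35%, 6.73% and 1.32% were called lower. Vim and Slc1a3 fell by 0.81 and 0.44 after 12 h without growth factor (limma adjusted p = 0.000470 and 0.0369), and the call of Slc1a3 was lost on leaving out 3 of the 16 arrays in turn. Nes, encoding nestin, fell by 0.89 and 0.83 in the 6 d groups (limma adjusted p = 0.000143 and 0.000775). Pdgfra, the receptor for PDGF-AA and the only oligodendrocyte lineage gene measured, rose by 1.51 after 6 d without growth factor (limma adjusted p = 0.00912), a call lost without replicate 1 or 2 of that group.

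Because Cdkn1c is imprinted, 14 other imprinted genes were read. In no factor 12 h, PDGF-AA 12 h, no factor 6 d and PDGF-AA 6 d, 2, 2, 4 and 1 of them rose, and 2 fell, both with PDGF-AA at 6 d. Of all units 5.21%, 0.661%, 6.99% and 1.9% were called higher, and 1.32% lower with PDGF-AA at 6 d. On leaving out 1 array at a time, the count of 4 after 6 d without growth factor ran from 3 to 4. The other counts were not stable. They gave 0 to 2 higher at 12 h without growth factor, and 0 to 2 with PDGF-AA at 12 h, where 14 of the 16 arrays each moved the count. With PDGF-AA at 6 d they gave 0 to 1 higher and 0 to 2 lower. The medians of the 14 genes were 0.09, 0.08, 0.01 and 0.04. Ndn, a growth-suppressing gene of postmitotic neurons, rose in all 4 groups, by 0.42, 0.49, 0.69 and 0.49. Its call at 12 h without growth factor was lost on leaving out 3 of the 16 arrays in turn, and its calls with PDGF-AA on leaving out 4 at each time. Igf2, a growth factor gene in the same imprinted region as Cdkn1c, rose by 1.38 after 6 d without growth factor (limma adjusted p = 0.000215).

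Genes of cell cycle exit and quiescence changed in both directions. Of 13 measured, 4 rose and 1 fell after 12 h without growth factor, 3 rose and 1 fell with PDGF-AA at 12 h, 3 rose and 2 fell after 6 d without growth factor, and 1 fell with PDGF-AA at 6 d. Of all units 5.21%, 0.661%, 6.99% and 1.9% were called higher and 6.48%, 2.35%, 6.73% and 1.32% lower in the same order. With PDGF-AA at 12 h the count of 3 higher was 0 without replicate 1, 2 or 4 of that group. After 6 d without growth factor it ran from 1 to 3 higher and from 1 to 2 lower. Gadd45g, a growth arrest gene, rose by 1.79 and 1.02 in the 12 h groups (limma adjusted p = 0.000133 and 0.0327), and the call with PDGF-AA was lost without any 1 of its 4 arrays. Gas1, a growth arrest gene that also acts in hedgehog signalling, fell by 0.98 and 1.07 in the 6 d groups (limma adjusted p = 0.000809 and 0.00136).

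The genes closest to each member were ranked by Pearson's r over the 16 arrays with the dye effect removed, as a description, since the arrays share a reference. Those most like Cdkn1c were Sparc, a secreted matrix protein (r = 0.95), Gstm1, a glutathione transferase (0.95), Cdc42se2 (0.95), Ptdss1, which makes phosphatidylserine (0.92), and Rnf13 (0.91). Sparc had group means of 0.93, 0.46, 2.27 and 1.24 in the order no factor 12 h, PDGF-AA 12 h, no factor 6 d and PDGF-AA 6 d, and Gstm1 had 1.23, 0.86, 1.93 and 1.33. The most opposite were Smarcc1 (-0.93), Tpm2 (-0.90) and Sipa1l2 (-0.90). With the dye effect kept, 1 of the 5 most like genes stayed among the first 5. The dye effect removed from Cdkn1c was larger than its measured dye differences at 12 h and smaller than those at 6 d. With 2 arrays per dye in each group, dye and other differences between arrays cannot be told apart. Its ranking may therefore hold a remainder of the dye, which was not tested.

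Those most like Cdkn2c were Cdca2 (0.94), Tacc3 (0.94), Kif23 (0.93), Incenp (0.93) and Top2a (0.91). Tacc3 and Kif23 act on the mitotic spindle, Incenp is a subunit of the chromosomal passenger complex, and Top2a untangles DNA in dividing cells. Top2a had group means of -2.49, -1.40, -1.07 and -0.51, and Incenp -1.57, -0.97, -0.54 and -0.32, in the same order of groups as Cdkn2c. The most opposite were Tmem223 (-0.91), Nepro (-0.86) and Serinc2 (-0.86). With the dye effect kept, 3 of the 5 most like genes stayed among the first 5. Over the same arrays Cdkn1c and Cdkn2c had an r of 0.23 with each other, and of -0.45 as deviations from their group means.

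**Figure D4:**
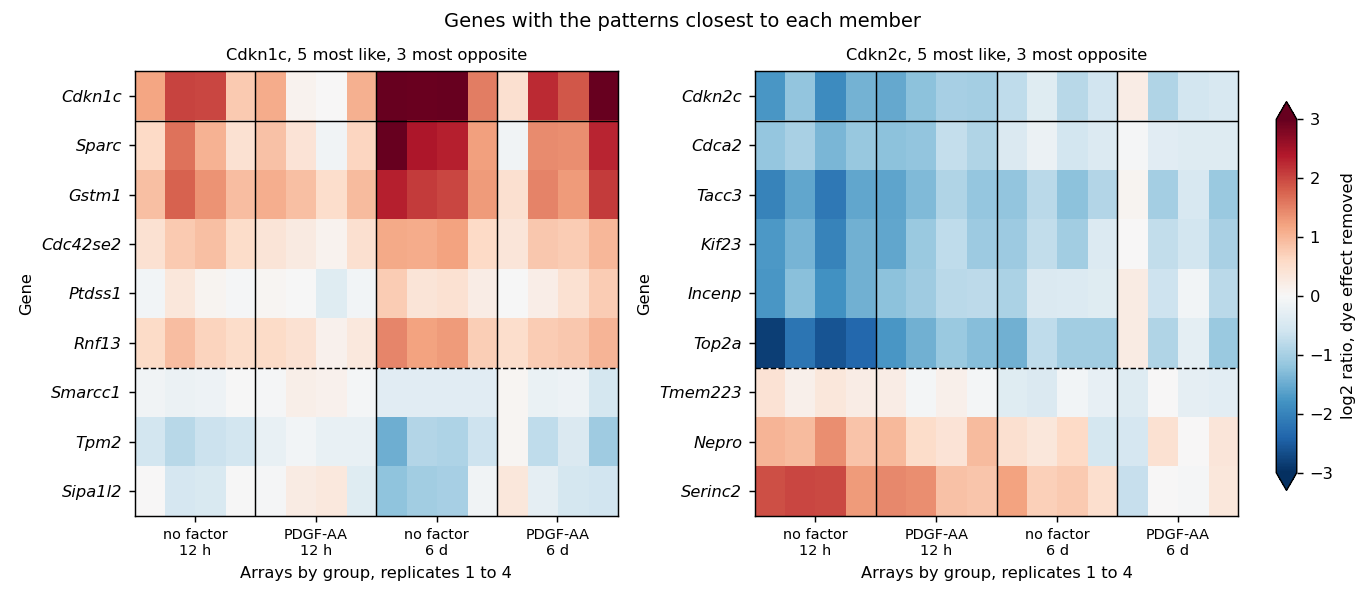
Log2 ratios with the dye effect removed (colour) for Cdkn1c (left) and Cdkn2c (right), each above its 5 most like genes and, under the dashed line, its 3 most opposite genes, on 16 arrays ordered by group and replicate. Genes near Cdkn1c are highest at 6 d without growth factor, where Sparc had a mean of 2.27, and genes near Cdkn2c are lowest at 12 h without growth factor, where Top2a had a mean of -2.49.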

How the data were processed

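Total RNA (40 micrograms) was labelled with Cy3 or Cy5 and put on mouse cDNA chips, per the labels, so rat RNA was read on mouse probes, which can lower a signal. The deposited values are log2 ratios per spot, with the base taken as 2. Background correction and normalisation are not given in the sources used here. Deposited array medians lay between -0.0053 and 0.0387, and array correlations with the rest of their own group, dye effect removed, between 0.117 and 0.718. Swapped arrays were judged to have been turned. Of the units beyond 1 on a group's Cy5 arrays, 58.7% to 89.4% kept their sign on its Cy3 arrays. The lowest of these shares would not by itself settle the turning of the arrays in its group. Of 15151 features, 9439 had a listed gene and 8833 exactly 1 symbol. The rat gene table held 0 of the chip's mouse gene identifiers, so sequences were matched by symbol.

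Arrays were centred on their median, features of 1 symbol averaged, and units with values on at least 3 arrays per group entered in 1 limma model (version 3.58.1, R 4.3.3) with group coefficients and a dye term. Tests were two-sided, with Benjamini-Hochberg adjustment over all 12559 units and a threshold of 0.05. The script was tested on simulated data. The number of arrays limits the precision. Members, lists and rules were chosen with earlier results of these data known. Genes named from a list were the members of the CDK pathway and, in other lists, up to 3 called genes of lowest adjusted p in each direction and group.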

Additional observations from a re-analysis of the deposited data

Results flagged for a closer look

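In 2 of 44 sets of 4 arrays, 1 array stood apart from the other 3 by Dixon's criterion, which chance meets in about 1 of 20 sets. Cdkn2c with PDGF-AA at 6 d was 0.435 in replicate 1, and its gap to the next array was 0.952 of the group's range. Ccnd3, a D-type cyclin gene, was 0.340 in replicate 3 of PDGF-AA at 12 h, with a gap of 0.905 of the range.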

How the results depend on the processing

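Of 402 alternative values for the members, 392 kept their direction and call, or moved by less than the spread between arrays where there was no test, and 3 reversed. Many of the 402 could not move the value, so the count of 392 does not measure robustness. With the dyes balanced, leaving out an array of a group outside the comparison, or dropping the dye term, returns the same mean and changes only the SE. For Cdkn1c with PDGF-AA at 6 d against FGF-2, the call was lost without a dye term (2.11, limma adjusted p = 0.0883), with a term for the number in the array titles (2.70, adjusted p = 0.135 in limma) and with only the groups compared (2.11, adjusted p = 0.122 in limma). Leaving out 1 array at a time gave 1.48 to 2.70, the lowest value and the lost call being without PDGF-AA 6 d replicate 4. With only the groups compared, Cdkn1c with PDGF-AA at 12 h passed the threshold (0.57, limma adjusted p = 0.0191). Cdkn2c with PDGF-AA at 6 d ranged from -0.67 to -0.25 and passed without replicate 1. For PDGF-AA against no factor at 6 d, Cdkn1c reversed to 1.37 on arrays of the commonest title number. Cdkn2c ranged from -0.030 to 0.38, reversing without PDGF-AA replicate 1, and was -0.090 without replicates 1 and 4, an alternative added after seeing the data. For Cdkn2c at 6 d against 12 h with PDGF-AA, an exact two-sided permutation test of the 0.77 difference gave p = 0.0286, the smallest that 4 against 4 arrays allow. For the Cdkn1c difference of 1.54 the same permutation test gave p = 0.257. These p-values are not adjusted over all units and take no account of the dye. Of 3450 alternatives for other genes, 3180 kept their side of the threshold, 260 lost a call, 10 gained one and 0 reversed. For these genes a change of sign counted as reversed only if the main fit or the alternative passed the threshold. For the members every change of sign counted, so the 2 tallies are unlike. Cdkn1b at 12 h without growth factor ran from -0.14 to 0.11 on leaving out 1 array at a time, and counted as kept. Averaging features against reading each one is void, since each member has 1. No paired analysis was possible because the labels give no replicate numbers that tie arrays of different groups. Signal over background is unknown, because the values used are ratios.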
